A study of Homo sapiens with 18 samples.

Results

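The 10 genes described here encode the nuclear lamina and the proteins that tie it to chromatin and to the cytoskeleton, namely LBR, LMNA, LMNB1, LMNB2, TMPO, LEMD3, SUN1, SUN2, BANF1 and SYNE2. They were listed by name, by a rule that uses no H1 value but was set with earlier results of these data known, and all 10 were found among 20090 protein-coding genes of chromosomes 1 to 22 and X. The cells were undifferentiated, untreated HL-60/S4, an established human myeloid leukemia line, fixed with formaldehyde. Rabbit polyclonal antibodies against the linker histones H1.2 or H1.5 were used in xChIP-seq, in which fixed chromatin was sonicated before it met the antibody, or by xxChIP-seq, in which the antibody was bound inside permeabilized fixed cells and fixed in place by a second round of formaldehyde before sonication. With 2 protocols and 2 antibodies there were 4 groups of 3 replicates, and 6 Input samples were left aside. For each group the authors deposited the positions of peaks merged over its replicates, without scores or read numbers. No spread between replicates can be had from 4 merged lists and their depth is unknown, so the values below are descriptions and no difference was tested.

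The lamina is a meshwork of intermediate filaments beneath the inner nuclear membrane. It is built from A-type lamins, made by LMNA, and B-type lamins, made by LMNB1 and LMNB2. Inner membrane proteins such as the lamin B receptor (LBR), the LEM-domain proteins (TMPO, LEMD3) and their chromatin-binding partner BANF1 hold chromatin at the nuclear periphery, while SUN and nesprin proteins (SUN1, SUN2, SYNE2) form the LINC complex, which crosses both nuclear membranes. Linker histone H1 binds nucleosomes where DNA enters and leaves and helps to compact chromatin. In myeloid cells the envelope proteins are known to shape the nucleus, and granulocytes with lobed nuclei carry much LBR and little lamin A. What the peaks measure is where H1 epitopes on these genes were enriched, and neither RNA nor protein was measured here.

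Positions are given in hg19 with GENCODE v44 genes. The members lie on 8 chromosomes, with LBR and LMNA both on chromosome 1 and TMPO and LEMD3 both on chromosome 12. Their gene records run from 1922 bp for BANF1 to 464535 bp for SYNE2, and pooled values lean on SYNE2, since all 10 together hold 895331 bases. The transcription start site (TSS) is that of the MANE Select transcript. It lies 91105 bp inside the gene record for SYNE2, 38145 bp for SUN2, 32138 bp for LMNA and 15861 bp for SUN1. Local GC content, taken over TSS ± 50 kb, had a median of 48.5% over the members and 44.2% over all genes. LEMD3 had the lowest local GC of the 10, 36.9%, at percentile 4.81 of all genes, and LMNB2 the highest, 56.2%, at percentile 95.9. So that base composition is held alike, each member was ranked among the 500 other protein-coding genes nearest to it in local GC. A percentile of 50 then means coverage in the middle of those genes.

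At the start sites, xChIP peaks were present at shares near the background and xxChIP peaks at none. An xChIP H1.2 peak reached TSS ± 1000 bp of 6 of the 10 members, against 47.2% of all genes and 51.9% of genes of similar local GC. An xChIP H1.5 peak reached 3, against 20.7% and 21.0%. Neither xxChIP list had a peak at any of the 10, although 7.87% of all genes had one in the H1.2 list and 7.14% in the H1.5 list. The absence of both xxChIP lists is the usual state, since 87.6% of all genes lacked them, as did 88.8% of genes of similar local GC and 92.6% of genes of similar GC at the start site itself. All 10 members also had no xxChIP peak within 2500 bp of the TSS, against 69.8% of all genes and 73.8% of genes of similar local GC. The choice of start matters, because with every annotated transcript start counted, xxChIP H1.2 peaks reached 4 members and xxChIP H1.5 peaks 5. Members had up to 28 annotated starts, and the share of all genes by that count was not computed.

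The members fell into 4 patterns at the TSS. LMNB1, LMNB2, TMPO and BANF1 had xChIP H1.2 without xChIP H1.5 (33.3% of all genes), LMNA and SUN1 had both xChIP lists (13.9%), LBR had xChIP H1.5 alone (5.79%), and LEMD3, SUN2 and SYNE2 had no peak of any list. An xChIP peak without an xxChIP peak was thus present at 7 members, against 48.1% of all genes, and no peak at 3, against 39.5%. These patterns depended on the window. The nearest xChIP peak lay 1033 bp from the TSS of SYNE2, 2414 bp for SUN2 and 3794 bp for LEMD3. With TSS ± 2500 bp, an xChIP H1.2 peak reached 9 members, and 9 had an xChIP peak and no xxChIP peak. Shares of all genes for these wider counts were not computed. Whole coverage of the 2001-bp window by xChIP H1.2 was found for LMNA, LMNB1, TMPO and SUN1, against 28.8% of all genes, and by xChIP H1.5 for LBR and SUN1, against 5.33%.

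The upstream sequences are shown for the member with the highest coverage of its start, for LBR and for the members without a peak there. The stretches below lie within the 250 bases upstream of the TSS, outside protein-coding exons, and are written 5′ to 3′ on the gene's strand with every CG in capitals. SUN1, at chr7:871863-872112 on the plus strand, is the member with the highest coverage of its start and has 7 CG in 250 bases. LBR, at chr1:225615789-225615990 on the minus strand, has 26 CG in 202 bases and was added after its values were seen, because it is the member with xChIP H1.5 alone. LEMD3, at chr12:65563113-65563362 on the plus strand, has 25 CG in 250 bases. SUN2, at chr22:39152006-39152253 on the minus strand, has 30 CG in 248 bases. SYNE2, at chr14:64319472-64319700 on the plus strand, has 29 CG in 229 bases. These last 3 are the members without a peak in TSS ± 1000 bp.
SUN1: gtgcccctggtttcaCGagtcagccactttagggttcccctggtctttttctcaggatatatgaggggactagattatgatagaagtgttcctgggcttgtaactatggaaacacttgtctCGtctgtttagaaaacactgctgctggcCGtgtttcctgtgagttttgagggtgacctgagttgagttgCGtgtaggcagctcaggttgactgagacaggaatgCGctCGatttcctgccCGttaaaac
LBR: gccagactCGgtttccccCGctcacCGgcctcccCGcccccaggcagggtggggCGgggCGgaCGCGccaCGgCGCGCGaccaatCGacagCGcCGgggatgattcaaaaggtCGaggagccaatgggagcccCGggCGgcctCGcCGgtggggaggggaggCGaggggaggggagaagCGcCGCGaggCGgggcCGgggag
LEMD3: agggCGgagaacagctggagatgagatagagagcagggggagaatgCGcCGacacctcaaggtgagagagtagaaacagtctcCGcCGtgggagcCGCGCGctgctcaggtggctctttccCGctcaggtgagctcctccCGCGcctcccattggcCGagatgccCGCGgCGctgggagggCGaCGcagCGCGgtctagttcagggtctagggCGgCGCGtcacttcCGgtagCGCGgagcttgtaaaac
SUN2: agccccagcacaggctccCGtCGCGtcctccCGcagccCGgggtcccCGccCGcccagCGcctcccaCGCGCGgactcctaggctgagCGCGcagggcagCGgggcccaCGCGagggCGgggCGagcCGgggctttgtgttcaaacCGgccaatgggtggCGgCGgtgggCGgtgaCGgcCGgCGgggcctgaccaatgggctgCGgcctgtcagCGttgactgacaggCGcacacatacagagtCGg
SYNE2: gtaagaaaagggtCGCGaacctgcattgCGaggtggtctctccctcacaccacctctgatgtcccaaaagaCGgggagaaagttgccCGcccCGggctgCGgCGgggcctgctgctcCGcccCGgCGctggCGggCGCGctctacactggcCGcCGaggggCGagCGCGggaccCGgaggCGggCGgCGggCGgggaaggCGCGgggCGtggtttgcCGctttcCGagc

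The SUN1 stretch was covered whole by both xChIP lists and the LBR stretch whole by xChIP H1.5, while the other stretches were bare in all 4 lists. GC content over TSS ± 1000 bp was 45.0% at SUN1 and 56.0% to 65.1% at the other 9 members. Over the full 250 bases upstream, the members had a median of 29.5 CG, against 18 over all 20090 genes. The letters CCAAT were found on either strand at 6 members, against 34.1% of all genes, and GGGCGG at 8, against 58.6%. TATAAA was found at no member and at 9.42% of all genes. GGGCGG contains a CG, so these counts are not separate. Among the 500 genes nearest in GC of TSS ± 1000 bp, 32.0% had an xChIP H1.2 peak for SUN1 and 52.2% for LBR, and the H1.5 coverage of SUN1 stood at percentile 98.5 and that of LBR at percentile 98.2.

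**Figure D1:**
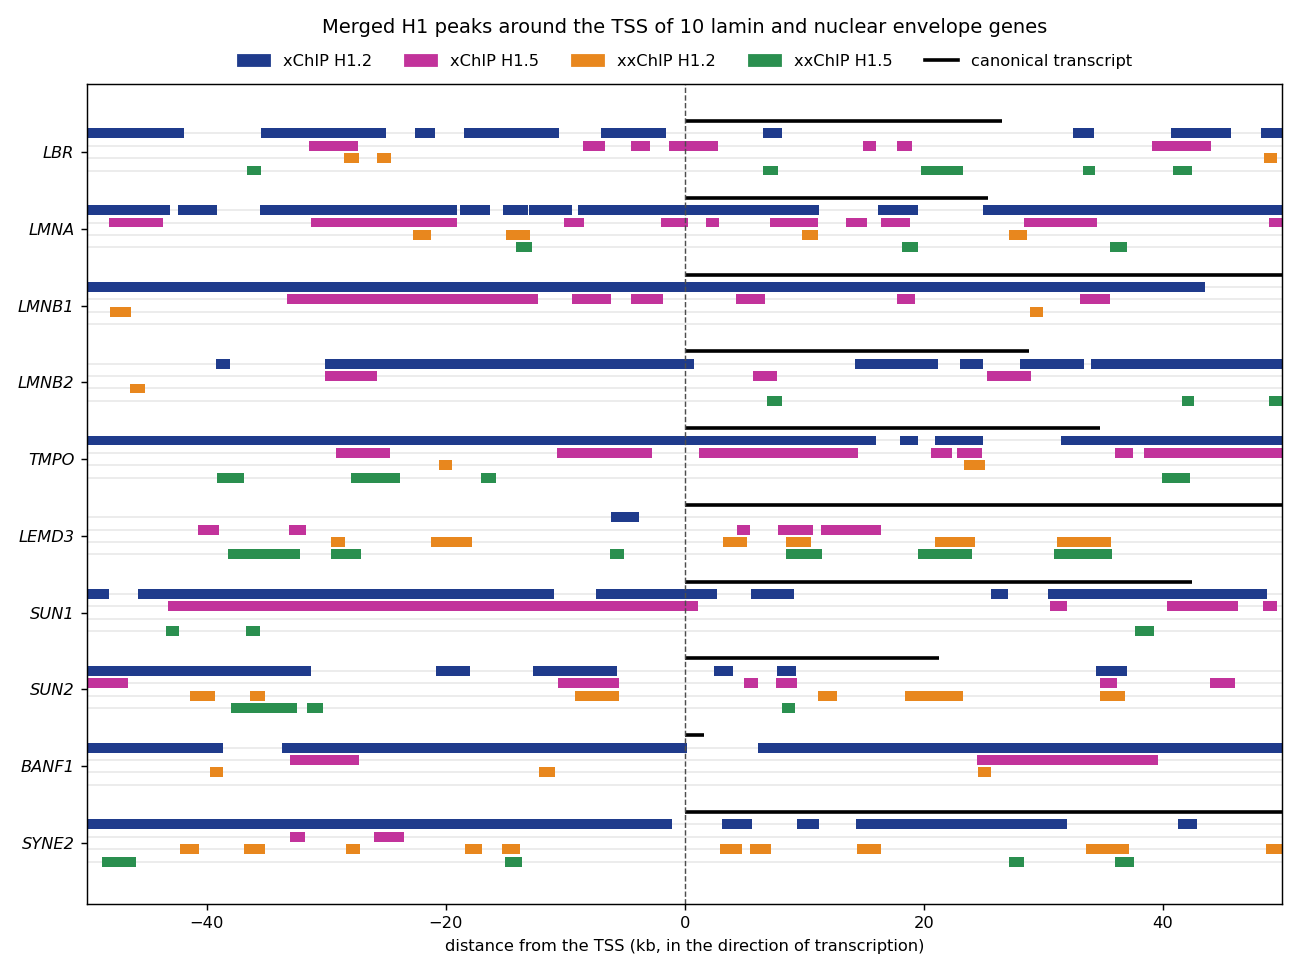
Merged peaks within 50 kb of the TSS of the 10 members, drawn to scale in kb along the direction of transcription. Coloured bars are peaks of the 4 lists, the black line above each set is the canonical transcript and the dashed line is the TSS. The xChIP H1.2 bars cross the TSS in 6 rows, no orange or green xxChIP bar touches it, and in the LEMD3 row the xxChIP bars outweigh the xChIP H1.2 bar.

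The 3 lamin genes differed in the reach of their H1.2 peaks. LMNB1 (chr5:126112315-126172712, plus strand), which encodes lamin B1, a lamin that stays farnesylated and bound to the membrane, lay under the longest peak on any member. That xChIP H1.2 peak ran for 269.7 kb from 125886714 to 126156367 and also touched ALDH7A1, PHAX and TEX43. Gene body coverage of LMNB1 was 78.6% in xChIP H1.2, 10.6% in xChIP H1.5, 1.81% in xxChIP H1.2 and 0% in xxChIP H1.5. In TSS ± 50 kb the same lists covered 93.5%, 33.5%, 2.84% and 0%. The surrounding xChIP H1.2 coverage stood at percentile 94.8 of genes of similar GC and the xxChIP H1.5 coverage at percentile 1.3, and the nearest xxChIP H1.5 peak was 92.0 kb upstream of the TSS.

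LMNA (chr1:156052364-156109872, plus strand), which encodes lamins A and C, was covered by both isotypes in xChIP. Its gene body coverage was 78.7% in xChIP H1.2, 44.4% in xChIP H1.5, 8.39% in xxChIP H1.2 and 4.67% in xxChIP H1.5. The xChIP H1.5 value stood at percentile 92.6 of genes of similar GC, and 90.9% of the xChIP H1.5 bases in LMNA also lay in xChIP H1.2, while 51.3% of the xChIP H1.2 bases lay in xChIP H1.5. A 20.2-kb H1.2 peak (156075535-156095761) covered the whole TSS window, and a 2.2-kb H1.5 peak covered 61.8% of it. The MANE Select transcript takes up 25.4 kb of the 57.5-kb record, and over that transcript alone the 4 values were 59.0%, 37.7%, 5.30% and 5.46%.

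LMNB2 (chr19:2427636-2456957, minus strand), which encodes lamin B2, had lower H1.2 coverage than the other lamin genes. In xChIP, 37.4% of its gene body lay in H1.2 peaks and 19.5% in H1.5 peaks, and in xxChIP 0% and 4.19%. Genes of similar GC had a median of 51.6% in xChIP H1.2, and LMNB2 stood at percentile 39. The H1.2 peak at its start, 30.9 kb long, also touched GADD45B and covered 89.6% of TSS ± 1000 bp. The H1.5 peaks fell on exons more than on introns, with 53.7% of LMNB2 exon bases covered against 11.8% of intron bases.

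LBR (chr1:225589204-225616627, minus strand) encodes an inner membrane protein that binds B-type lamins and heterochromatin and also acts as a sterol reductase. It was the member in which H1.5 outweighed H1.2 in both protocols by at least 10 percentage points of gene body. Coverage was 5.81% in xChIP H1.2, 21.95% in xChIP H1.5, 0% in xxChIP H1.2 and 17.3% in xxChIP H1.5. Genes of similar GC had a median of 35.7% in xChIP H1.2, where LBR stood at percentile 14.4, and its xxChIP H1.5 coverage stood at percentile 81.4. A 4.1-kb H1.5 peak (225612934-225617036) covered the whole TSS window, and no base of it within the gene was also in xChIP H1.2. The nearest xChIP H1.2 peak ended 1545 bp upstream of the TSS, so that with a window of 2500 bp LBR counts for both isotypes. A start covered by xChIP H1.5 alone of the 4 lists was found at 5.79% of all genes and at 5.30% of genes with GC like the members. The 50 kb upstream of the TSS were covered to 67.4% by xChIP H1.2, at percentile 65.4, and the 50 kb downstream to 20.2%, at percentile 24.2.

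The LEM-domain genes TMPO and LEMD3 stood at opposite ends of the 10 in the H1.5 difference between the protocols, with 49.4 points more gene body coverage in xChIP for TMPO and 15.2 points more in xxChIP for LEMD3. TMPO (chr12:98909357-98944129, plus strand), which encodes the lamina-associated polypeptides LAP2, had gene body coverage of 71.5% in xChIP H1.2, 49.4% in xChIP H1.5, 5.01% in xxChIP H1.2 and 0% in xxChIP H1.5. The xChIP H1.5 value was the highest of the members and stood at percentile 96 of genes of similar GC, where the median was 10.7%. An 89.4-kb H1.2 peak crossed the TSS, and 98.5% of the xChIP H1.5 bases in TMPO lay in xChIP H1.2, while 68.1% of the xChIP H1.2 bases lay in xChIP H1.5. The H1.5 peaks left the start itself free, with the nearest, 13.4 kb long, beginning 1163 bp downstream.

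LEMD3 (chr12:65563363-65642135, plus strand) encodes MAN1, an inner membrane protein that binds SMAD proteins and dampens TGF-beta signalling. Gene body coverage was 0% in xChIP H1.2, 11.5% in xChIP H1.5, 17.5% in xxChIP H1.2 and 26.7% in xxChIP H1.5. It was the member with more xxChIP than xChIP coverage for both isotypes, a state found in 13% of all genes and 8.66% of genes of similar GC. In TSS ± 50 kb, xChIP H1.2 covered 2.39%, from 1 peak of 2393 bp upstream, which stood at percentile 3.2 of genes of similar GC. The xxChIP lists overlapped in part, with 70.5% of xxChIP H1.2 bases in LEMD3 also in xxChIP H1.5 and 46.1% of xxChIP H1.5 bases also in xxChIP H1.2. A 25.5-kb xxChIP H1.5 peak (65635699-65661154) covered exons 10 to 13 and ran past the end of the gene, and the 2001 bp around the gene end were covered whole, at percentile 97. Local GC is low here, and genes of similar GC had medians of 9.24% for xChIP H1.2 and 16.7% for xxChIP H1.2.

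BANF1 (chr11:65769699-65771620, plus strand), which encodes the small DNA-bridging protein BAF that LEM domains bind, is the shortest member. Of its gene body, 25.4% lay in xChIP H1.2 peaks and none in the other 3 lists. The covered bases were the far edge of a 33.9-kb peak (65736258-65770187) that also lay on SART1 and EIF1AD and ended inside BANF1. In TSS ± 50 kb, which holds 7 other protein-coding genes, xChIP H1.2 covered 89.2%, at percentile 91.5 of genes of similar GC.

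The LINC complex genes differed from one another in xxChIP H1.2. SUN1 (chr7:856252-936072, plus strand), which encodes an inner membrane partner of nesprins and lamin A, had gene body coverage of 54.5% in xChIP H1.2, 35.5% in xChIP H1.5, 1.37% in xxChIP H1.2 and 3.42% in xxChIP H1.5. A 44.4-kb H1.5 peak (828904-873259), the longest H1.5 peak on any member, and a 10.2-kb H1.2 peak (864668-874824) covered its start. In TSS ± 50 kb, xChIP H1.5 covered 52.8% (percentile 96.4) and xxChIP H1.2 covered 0% (percentile 3.7). The upstream part of the record carried much of the H1.5 coverage, since over the canonical transcript alone it was 11.0%.

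SUN2 (chr22:39129295-39190148, minus strand), the paralogue of SUN1 in the same complex, differed from it in xxChIP. Gene body coverage was 33.1% in xChIP H1.2, 13.1% in xChIP H1.5, 17.9% in xxChIP H1.2 and 12.9% in xxChIP H1.5. The xxChIP H1.2 value stood at percentile 95.6 of genes of similar GC, whose median was 0%, and in TSS ± 50 kb, at 15.7%, at percentile 95.2. At the end of the gene, 79.9% of the 2001-bp window was covered by xxChIP H1.2, at percentile 98.8. The direction of the H1.2 difference depended on the gene model, because over the canonical transcript xChIP H1.2 covered 15.4% and xxChIP H1.2 covered 21.2%. In exons, 4.01% of bases lay in xChIP H1.2 and 40.3% in xxChIP H1.2.

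SYNE2 (chr14:64228617-64693151, plus strand) encodes nesprin-2, a giant outer membrane protein that reaches the actin cytoskeleton, from 116 exons. Gene body coverage was 42.6% in xChIP H1.2, 11.0% in xChIP H1.5, 22.6% in xxChIP H1.2 and 10.6% in xxChIP H1.5. It was the member with the highest xxChIP H1.2 coverage, at percentile 84.8 of genes of similar GC. A 164.8-kb xChIP H1.2 peak (64153888-64318689) covered the first part of the record and ended 1033 bp upstream of the TSS, while in the canonical transcript xChIP H1.2 covered 28.9% and xxChIP H1.2 22.8%. In TSS ± 50 kb, xChIP H1.5 covered 3.77%, at percentile 4.4, the lowest of the members, beside 72.4% for xChIP H1.2.

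**Figure D2:**
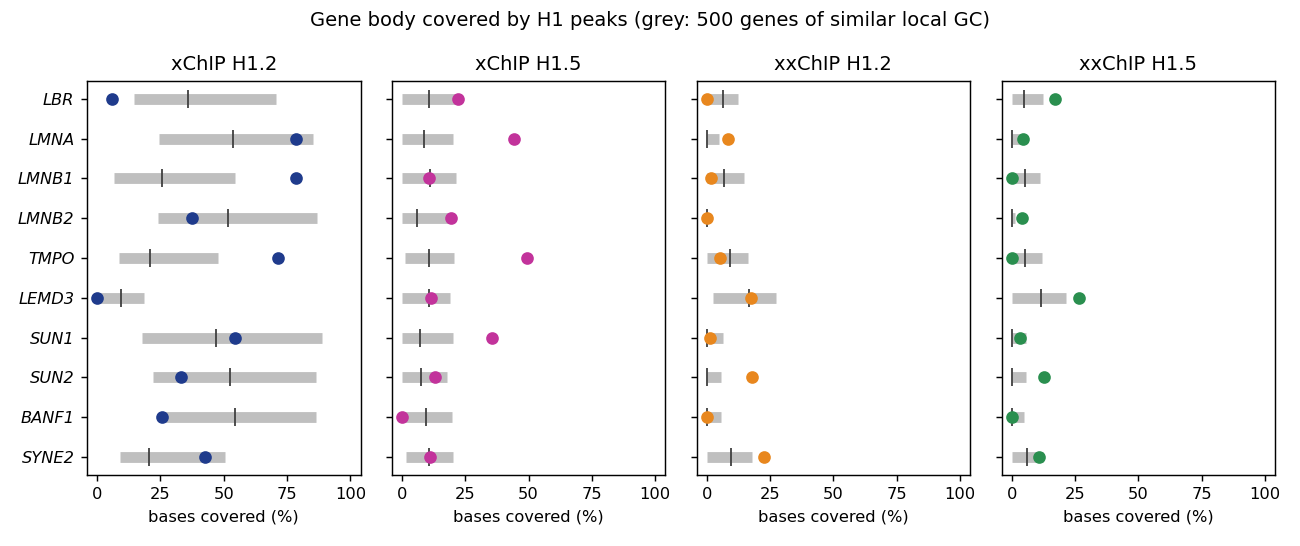
Share of each member's gene body covered by peaks, in percent, in 1 panel per list. The coloured point is the member, the grey bar runs from the lower to the upper quartile of the 500 genes nearest to it in local GC, and the tick is their median. LMNA, LMNB2, TMPO and SUN1 lie right of the grey bar for xChIP H1.5, LMNB1 and TMPO for xChIP H1.2, and LMNA, SUN2 and SYNE2 for xxChIP H1.2, whereas LBR and BANF1 lie left of it for xChIP H1.2.

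Every member held a peak of at least 1 list in its gene body. The share of all genes with a peak of any list was not computed, but it cannot be below the 82.9% with an xChIP H1.2 peak. In xChIP, H1.2 peaks touched 9 of the 10 (82.9% of all genes) and H1.5 peaks also 9 (70.3%). In xxChIP, H1.2 peaks touched 7 (60.6%) and H1.5 peaks 7 (58%). BANF1 was untouched by both xxChIP lists, LEMD3 lacked xChIP H1.2, LBR and LMNB2 lacked xxChIP H1.2, and LMNB1 and TMPO lacked xxChIP H1.5. The median coverage was 40.0% in xChIP H1.2 (26.4% over all genes), 16.3% in xChIP H1.5 (10.3%), 3.41% in xxChIP H1.2 (5.90%) and 4.43% in xxChIP H1.5 (4.30%). Read against genes of similar GC, the members were not uniformly high, with a median percentile in xChIP of 46.9 for H1.2 and 70.3 for H1.5, and in xxChIP of 45.0 for H1.2 and 69.7 for H1.5. In xChIP, 8 of the 10 lay above percentile 50 for H1.5 and 5 for H1.2. Among genes of similar GC whose length was also within 3 times, the H1.5 median percentile was lower. It was 61.3 in xChIP and 51.75 in xxChIP, while for H1.2 the medians were 48.9 and 36.9. The spread among members was wide, from 0% to 78.7% in xChIP H1.2 and from 0% to 26.7% in xxChIP H1.5.

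The xChIP and xxChIP protocols were compared for each isotype, counting differences of at least 10 percentage points of gene body. For H1.2, xChIP coverage was higher in 8 members, against 56.1% of all genes and 63.2% of genes of similar GC, and lower in 1, LEMD3, against 12% of all genes. LBR differed by 5.81 points. Over the canonical transcript, and likewise over exons only, xChIP H1.2 was higher by that margin in 6 members. Shares of all genes by these gene models were not computed. For H1.5, xChIP coverage was higher in LMNA, LMNB1, LMNB2, TMPO and SUN1, against 30.3% of all genes, and lower in LEMD3, against 12.4%. The size of the H1.2 difference ranged from 76.8 points in LMNB1 to 15.2 in SUN2 among the 8, and its median over the members was 31.4 points, against 16.3 over all genes. Ranked among genes of similar GC, the members' differences were not uniformly high, from percentile 23 in LEMD3 to 89.8 in LMNB1. LBR, LMNB2, LEMD3, SUN2 and BANF1 lay below percentile 50 there, and the other members above it. No member had H1.2 and H1.5 moving in opposite directions between the protocols by that margin, a state found in 4.18% of all genes.

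The isotypes were then compared within each protocol. In xChIP, H1.2 coverage exceeded H1.5 coverage in 8 members, against 53.7% of all genes, and fell below it in LBR and LEMD3, against 6.53%. LBR, at 16.1 points below, stood at percentile 4.6 of genes of similar GC. In xxChIP, H1.2 exceeded H1.5 in SYNE2, by 11.9 points, against 14.2% of all genes, and fell below it in LBR, by 17.3 points, against 8.02%. The remaining 8 members differed by less than 10 points in xxChIP.

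**Figure D3:**
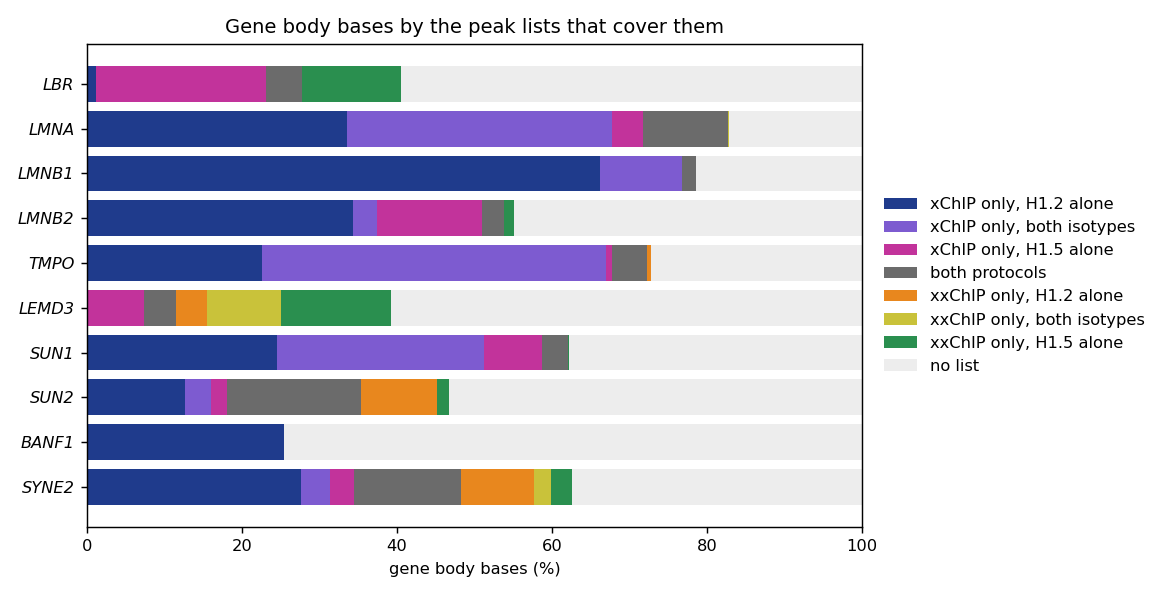
Gene body bases of each member, in percent, divided by the lists that cover them. Blue, violet and magenta are bases in xChIP lists alone, dark grey in both protocols, orange, yellow and green in xxChIP lists alone, and pale grey in no list. LMNB1 is 66.2% xChIP H1.2 alone, LMNA and TMPO have 34.2% and 44.3% in both xChIP isotypes, and LEMD3 has 60.8% in no list.

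Base by base, 50.1% of the members' gene bodies lay in at least 1 xChIP list, 21.4% in at least 1 xxChIP list, 10.3% in both protocols and 38.8% in none. All 4 lists met on 0.559% of the bases, in SYNE2 (3970 bp) and SUN1 (1035 bp) and in no other member. These shares were not computed over all genes, and SYNE2 holds 464535 of the 895331 bases. Pooled over the members, exons were covered less than introns in every list, with 26.6% of exon bases and 45.8% of intron bases in xChIP H1.2, 13.5% and 18.0% in xChIP H1.5, 9.20% and 16.1% in xxChIP H1.2, and 4.55% and 10.6% in xxChIP H1.5. Exons were also covered less than introns over all genes, with 27.0% and 28.5% in xChIP H1.2, 10.6% and 15.7% in xChIP H1.5, 7.16% and 17.0% in xxChIP H1.2, and 5.94% and 14.0% in xxChIP H1.5. Of the xChIP H1.2 peaks on members, 10 of 58 reached 20 kb, beside 4.07% of all peaks in that list. The counts were 1 of 49 in xChIP H1.5 (1.006% of all its peaks), 0 of 52 in xxChIP H1.2 (2.04%) and 1 of 36 in xxChIP H1.5 (1.17%), and a long peak has more chance to touch a gene than a short one. Merging replicates can lengthen peaks, and its part in these lengths was not tested.

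The surroundings of the start sites carried more xChIP H1.2 than the gene bodies did. In TSS ± 50 kb the median over members was 71.3% in xChIP H1.2 (36.2% over all genes), 19.9% in xChIP H1.5 (15.4%), 3.52% in xxChIP H1.2 (9.83%) and 5.65% in xxChIP H1.5 (7.74%). The median percentiles among genes of similar GC were 72.7, 63.6, 28.7 and 55.6. LEMD3, SUN2 and LBR were the members below percentile 50 for xChIP H1.2, and SUN2, LMNA and SYNE2 those above it for xxChIP H1.2. For H1.2, xChIP exceeded xxChIP by at least 10 points in 9 members, against 66.3% of all genes and 75.8% of genes of similar GC, with LEMD3 lower, against 11.6% of all genes.

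**Figure D4:**
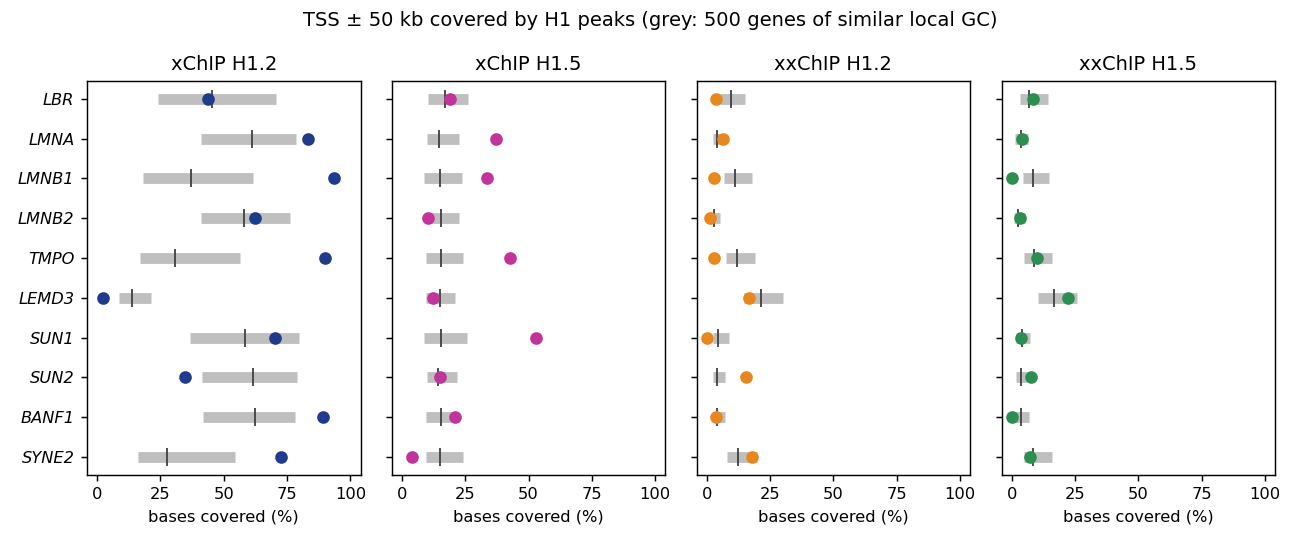
Share of TSS ± 50 kb covered by peaks, in percent, for each member and list, with the same symbols as in the plot of gene bodies. LMNB1, TMPO, LMNA, BANF1 and SYNE2 lie right of the grey bar for xChIP H1.2, LEMD3 and SUN2 lie left of it. For xxChIP H1.2, SUN2 lies right of it, LBR, LMNB1, TMPO and SUN1 lie left of it, and LMNB2 sits at its left edge.

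Coverage changed with side and distance. In the 5 kb upstream of the TSS, mean xChIP H1.2 coverage was 77.3% over the members, 42.1% over all genes and 47.0% over genes of similar GC. In the 5 kb downstream it was 44.5%, 37.6% and 42.5%. The xChIP H1.5 mean was highest from 10 to 5 kb upstream, at 42.6%, against 19.2% over all genes, and was 21.0% in the first 5 kb downstream. No member had an xxChIP peak of either isotype in the 5 kb upstream, where 26.0% of all genes had one for H1.2 and 22.7% for H1.5. Among genes of similar GC these shares were 21.6% and 19.6%. In the 5 kb downstream 2 members, LEMD3 and SYNE2, had an xxChIP H1.2 peak (20.2% of all genes, 17.2% of genes of similar GC). None had one for H1.5 (17.9% and 15.7%). The median distance from TSS to the nearest xxChIP peak was 8.3 kb over the members and 4.7 kb over all genes. Genes of similar GC had medians that averaged 6349 bp, and the members had a median percentile of 57.7 among them. LMNB1 (28.9 kb), SUN1 (35.5 kb) and TMPO (15.8 kb) were the farthest, at percentiles 98.4, 96.6 and 94 of genes of similar GC.

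**Figure D5:**
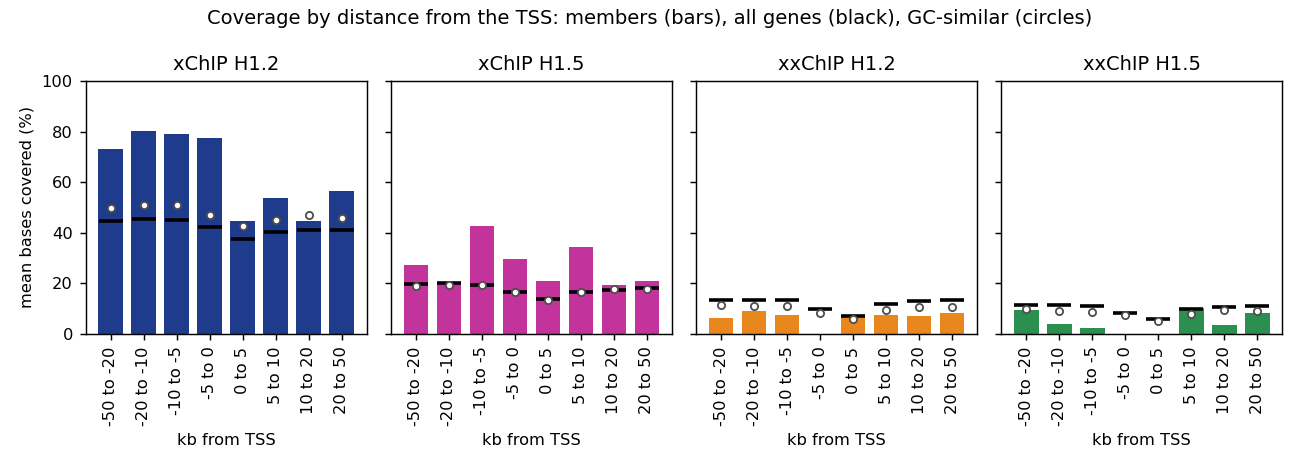
Mean share of bases covered, in percent, in 8 zones of distance from the TSS (kb, negative upstream), in 1 panel per list. Bars are the 10 members, black lines all protein-coding genes and circles the genes of similar local GC. The xChIP H1.2 bars stand near 77.3% just upstream and 44.5% just downstream of the TSS, and both xxChIP panels have an empty bar from 5 kb upstream to the TSS.

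Other genes of the nuclear envelope were set beside the members, in a list of 30 envelope and lamina-associated genes and a list of 32 nuclear pore genes that exclude the 10. These lists were read beside all genes only, without ranking by GC. Median gene body coverage in xChIP H1.2 was 51.1% for envelope genes and 59.6% for pore genes (26.4% over all genes). In xxChIP H1.2 it was 0% and 7.98% (5.90%). For H1.2, xChIP exceeded xxChIP by at least 10 points in 26 of 30 envelope and 25 of 32 pore genes (56.1% of all genes). It fell below in 2 and 3 (12%). An xChIP H1.2 peak lay at the TSS of 19 envelope and 23 pore genes (47.2% of all genes), and an xxChIP H1.2 peak at 3 and 1 (7.87%). A TSS with xChIP H1.5 alone of the 4 lists, the state of LBR, was found in 0 of 30 envelope and 3 of 32 pore genes, against 5.79% of all genes. Among the envelope genes with the largest difference in favour of xChIP H1.2 were SPAG4 (a testis SUN protein), TOR1B (a torsin ATPase of the envelope lumen) and NRM (nurim). Each was 100% covered by xChIP H1.2 and 0% by xxChIP H1.2, and IFFO1 tied with them. In the other direction were MLIP, which binds lamin A, at 8.48% against 33.0%, SUN3, at 16.1% against 28.7%, and SYNE1 (nesprin-1, the paralogue of SYNE2), at 20.4% against 30.4%. Among pore genes, NUP43 and AAAS were 100% covered by xChIP H1.2 and 0% by xxChIP H1.2, and GLE1 was 100% and 3.25% covered. NUP37, a scaffold nucleoporin of the Y complex, had 0% in xChIP H1.2 and 44.5% in xxChIP H1.2, NUP54, of the central channel, had 0% and 18.8%, and TPR, of the nuclear basket, had 3.59% and 21.3%.

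The patterns of LBR and LMNA were compared with those 62 genes over 12 values, the coverage of gene body, TSS ± 1000 bp and TSS ± 50 kb in the 4 lists, by Euclidean distance in percentage points. LMNA was closest to ANKLE2 (31.7), NRM (37.3) and IFFO1 (39.1). LBR had no such close neighbour, with NUP214 at 48.1, CTDNEP1 at 75.4 and TMEM201 at 87.6.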

How the data were processed

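Peaks came from 12 immunoprecipitated HL-60/S4 samples, 3 per protocol and antibody. Bowtie2 (genome hg19, unique hits) and MUSIC (default settings) were the authors' aligner and peak caller, and they merged peaks over replicates. They deposited 4 lists with 3 columns (chromosome, start, end) and no count, signal or score. Merging can lengthen peaks, and the number of replicates behind a peak and the read depth are not in these lists. The lists were read as intervals, counted from 0 and open at the end.

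The gene set was GENCODE v44 in its GRCh37 version (the sequence of hg19), 1 record per symbol, 20090 in all. The TSS was that of the MANE Select transcript (18873 genes), else the Ensembl canonical transcript (939), else the 5′ end of the gene record (278). Coverage is the percent of known bases of a window that lie in peaks. Percentiles split ties evenly and leave the members out of the 500 genes. A difference of 10 percentage points or more was counted as higher or lower, and overlap was counted from 1 bp. Promoter motifs were searched on both strands of the 250 bases upstream. The coverage step was tested on simulated peaks. Python 3.11.15, numpy 2.4.6 and matplotlib 3.10.9 were used.

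No test was run, since a merged list has no replicates. The members, gene lists and thresholds were chosen with earlier results of these data known. All 10 members are named, with up to 3 genes per list and direction by the difference between xChIP H1.2 and xxChIP H1.2, the 3 genes nearest to LBR and LMNA, and the promoters of the members with the highest and lowest TSS coverage. The alternatives changed the windows, gene models, peak lengths, thresholds and the genes of similar GC. Input samples and reads were not analysed here.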

Additional observations from a re-analysis of the deposited data

How the results depend on the processing

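Of 164 alternatives, 143 left the value within 1.5 times of that reported and 21 moved it further. This rule is loose for percentiles. The median gene body percentile of xxChIP H1.5, reported as 69.7, counted as unmoved at 51.75 among genes of similar GC and length. It was 50.4 among all genes and also counted as unmoved. The 143 include every value from the setting that kept only peaks of at least 1000 bp, and all of these equalled the reported values. That setting removed no peak touching a member, since the shortest such peak was 1006 bp, in xxChIP H1.2. Its values therefore do not show whether the results depend on peak length. No paired analysis was possible because each list merges its replicates, so replicates could not be left out either. The number of members with a peak at the TSS moved for xChIP H1.5 from 3 to 5 with TSS ± 2500 bp and to 8 with any annotated start, for xxChIP H1.2 from 0 to 1 with the 5′ end of the gene record and to 4 with any start, and for xxChIP H1.5 from 0 to 2 and 5. For xChIP H1.2 it rose from 6 to 9 with TSS ± 2500 bp, the 5′ end of the record or any start. That rise is at the limit of 1.5 times and was counted as unmoved. More annotated starts give more chances of a peak, and the counts over any start were not made for all genes. With exons alone, median coverage was 8.87% in xChIP H1.5 and 0% in both xxChIP lists, and H1.2 exceeded H1.5 in 5 members in xChIP and 2 in xxChIP. That xxChIP count was also 2 with the canonical transcript and 0 at 20 points, where xChIP exceeded xxChIP for H1.5 in 3. Such counts under changed gene models or margins were not made for all genes. With peaks shortened by 250 bp at both ends, median gene body coverage in xxChIP H1.5 was 2.71%, and xxChIP H1.2 covered 2.02% around the TSS. Around the TSS, the xxChIP H1.5 median was 2.65% within 25 kb, and the xxChIP H1.2 median was 7.90% within 100 kb and 6.43% over the gene body with 50 kb on both sides. Ranked among all genes, the median percentile of xxChIP H1.2 around the TSS was 18.5. Without SYNE2, an alternative added after seeing the data, median gene body coverage in xxChIP H1.2 was 1.81%. The cause of these changes was not tested.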

Other observations

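The annotated starts of several members differed in H1 peaks within the same gene. At the 5′ end of the SUN2 gene record, 38145 bp from the start used above, xChIP H1.2 covered 100% of the 2001-bp window and xxChIP H1.5 39.2%, whereas the MANE Select start was bare. The 5′ end of the SYNE2 record was likewise covered to 100% by xChIP H1.2, with 34.2% in xxChIP H1.2 and 10.2% in xxChIP H1.5. Of 28 annotated LMNA starts, 24 had an xChIP H1.2 peak, 21 an xChIP H1.5 peak, 8 one of xxChIP H1.2 and 2 one of xxChIP H1.5. All 7 LMNB1 starts were covered whole by xChIP H1.2. Of 28 SUN1 starts, 17 had an xChIP H1.2 peak, 13 an xChIP H1.5 peak and none a peak of either xxChIP list. LEMD3 had no xChIP peak at any of 5 annotated starts, and 3 of them were covered whole by xxChIP H1.5. Which of these starts HL-60/S4 cells use was not measured here, and starts were not counted in this way for other genes.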
